A study of Mus musculus with 12 samples.

Results

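The Hedgehog pathway genes described here are the 3 GLI transcription factors and the receptors and inhibitors that act above them: Gli1, Gli2, Gli3, Ptch1, Smo, Sufu, Hhip, Gas1 and Boc. They are the rows of the normalized count table whose Entrez ID maps to those symbols, 9 of 27179 genes. Of the 9, 7 reached a normalized count of 10 in at least 3 libraries, the filter for testing, and 13939 genes in all did. Hhip and Boc stayed below 10 in every library and are given as not measured.

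Polyadenylated RNA was sequenced from mIMCD3 cells, a mouse line of the kidney's inner medullary collecting duct, in 4 groups of 3 libraries. The groups were an Actr3 knockout line given 0.5 µM ciliobrevin D (Actr3 KO with ciliobrevin D), a line labelled as an Actr3 and Ift88 double knockout (dKO), the Actr3 knockout line (Actr3 KO) and a wild type control line (control). All groups were grown to confluence over 48 h in 10% fetal calf serum, then kept serum-free for 24 h, and the groups without ciliobrevin D had its solvent as the protocol states it. The Arp2/3 complex, of which Actr3 encodes a subunit, builds branched actin, Ift88 encodes an intraflagellar transport protein needed to build cilia, and ciliobrevin D inhibits cytoplasmic dynein. Each knockout genotype was 1 line, so line and genotype cannot be told apart. The labels do not say that the dKO line was made from the Actr3 KO line. Nor do they name separate cultures behind a group's libraries, and p-values therefore cover only the spread between these libraries, possibly a technical one. The control titles all name control 1, with replicates 1 to 3, but 1 control column is headed control 2, replicate 1. It matches no title and is called the unmatched control library; it may come from a second control line, so the 3 control libraries may hold more than 1 line. Leaving it out changed no member's call in any comparison, and the members called in Actr3 KO against control stayed at 4.

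In vertebrates, Hedgehog signals are read at the primary cilium. Without a ligand, PTCH1 keeps SMO out of the cilium, SUFU holds the GLI proteins, and GLI3 is cut into a repressor; with a ligand, SMO enters the cilium and GLI2 becomes the main activator. Gli1 and Ptch1 are classical target genes of the pathway, and in the developing collecting duct the GLI3 repressor is known to shape ureteric branching.

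Libraries held 28902562 to 38077987 reads. The targeted gene Actr3 averaged 1573 ± 180 normalized counts in Actr3 KO with ciliobrevin D, 871 ± 38.6 in dKO and 1218 ± 111 in Actr3 KO, against 8336 ± 293 in control (SD, n = 3 each). Ift88 averaged 438 in Actr3 KO with ciliobrevin D, 604 in dKO and 617 in Actr3 KO, against 457 in control. Between dKO and Actr3 KO the adjusted p was 0.725 in limma. Both were higher than control, by log2 fold changes of 0.40 in dKO and 0.43 in Actr3 KO (limma adjusted p = 3.94e-05 and 1.50e-05). A count over a whole gene does not read an edit inside it. No source used here gives the place of the edit, so Ift88 does not check the dKO label. Of 13 markers of collecting duct principal cells and kidney epithelium, 12 reached the filter. Their summed normalized count was 66118 to 69432 in Actr3 KO with ciliobrevin D, 64573 to 69487 in dKO and 55804 to 60690 in Actr3 KO, against 100298 to 108076 in control. No marker of intercalated cells or endothelium reached the filter, 4 of 7 fibroblast markers did with Col3a1 at 0, and 1 of 3 blood and immune markers did. The fibroblast sum was 1747 to 1874 with ciliobrevin D, 881 to 978 in dKO, 1510 to 1624 in Actr3 KO and 1308 to 1395 in control. That sum is nearly all Foxd1, which averaged 1684 with ciliobrevin D, 812 in dKO, 1422 in Actr3 KO and 1204 in control. Of the other fibroblast markers, Pdgfra (6.24, 28.1, 9.65 and 2.91 in the same order) and Dcn (8.68, 16.7, 12.8 and 4.69) had their highest means in dKO, and Col1a1 had its lowest there (118, 63.6, 118 and 133). The part of any of these lists in the results below was not tested. Fewer cells of a kind and less RNA per cell cannot be told apart in these bulk samples.

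Divided by the length of the merged exons, Gas1 and Smo were the most abundant members in control, and Gli1 was the least. In control, levels per kb of exon were 1077 ± 19.6 normalized counts for Gas1 and 1045 ± 44.2 for Smo, which lie within their spread, then 322 ± 12.6 for Gli3. Sufu (97.5 ± 5.20) and Ptch1 (91.6 ± 5.47) also lay within their spread, and Gli2 (22.2 ± 1.45) and Gli1 (0.788 ± 0.983) followed (SD, n = 3). In Actr3 KO the order was Gas1 (1060), Smo (739), Gli3 (322), Ptch1 (134), Sufu (110), Gli2 (12.3) and Gli1 (0.557). Gas1 lost its first place in both other groups. In dKO, Smo (800 ± 15.8) stood above Gas1 (552 ± 23.9), and with ciliobrevin D, Smo (632 ± 36.8) stood above Gas1 (432 ± 38.7) and Gli3 (415 ± 21.4), which overlapped.

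Among the 3 GLI factors, Gli3 held nearly all of the length-corrected transcript in every group. Its share of the summed level per kb was 96.7% ± 0.107 with ciliobrevin D, 98.8% ± 0.278 in dKO, 96.2% ± 0.653 in Actr3 KO and 93.4% ± 0.569 in control (SD, n = 3 each). The Gli2 share was 2.97% with ciliobrevin D, 0% in dKO, 3.65% in Actr3 KO and 6.42% in control. That of Gli1 was at most 1.55% in any library, a dKO one.

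The bases before the start sites of 3 members are shown because these members carry the main contrasts below: Gli2 had no reads in dKO, Gli3 was the dominant GLI factor, and Gas1 had the largest called change with ciliobrevin D among the members. They are the 250 bases before the start that RefSeq gives on GRCm38.p6, on the gene's own strand and 5′ to 3′, with CG dinucleotides in capitals. The windows are chr1:119053620-119053869 on the minus strand for Gli2, which lies inside the annotated gene span, chr13:15463473-15463722 on the plus strand for Gli3 and chr13:60177536-60177785 on the minus strand for Gas1.
Gli2: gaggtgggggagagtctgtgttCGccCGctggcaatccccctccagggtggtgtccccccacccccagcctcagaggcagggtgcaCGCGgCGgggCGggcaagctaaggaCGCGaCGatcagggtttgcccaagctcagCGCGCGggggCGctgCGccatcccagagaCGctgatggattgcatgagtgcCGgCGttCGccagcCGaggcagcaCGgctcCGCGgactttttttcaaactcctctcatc
Gli3: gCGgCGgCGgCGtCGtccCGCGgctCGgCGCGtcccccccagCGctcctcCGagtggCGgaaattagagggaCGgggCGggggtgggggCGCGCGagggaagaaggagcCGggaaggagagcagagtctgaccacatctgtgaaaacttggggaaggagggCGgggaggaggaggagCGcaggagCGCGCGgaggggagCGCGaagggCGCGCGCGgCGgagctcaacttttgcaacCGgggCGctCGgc
Gas1: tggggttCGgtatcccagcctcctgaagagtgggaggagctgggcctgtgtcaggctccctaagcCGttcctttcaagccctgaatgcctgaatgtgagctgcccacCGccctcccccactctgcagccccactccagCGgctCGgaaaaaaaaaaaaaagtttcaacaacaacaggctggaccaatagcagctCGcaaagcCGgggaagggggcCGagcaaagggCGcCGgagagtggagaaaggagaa
The windows hold 22 CG dinucleotides before Gli2, 34 before Gli3 and 10 before Gas1. In 13396 windows of tested genes the median was 15, with quartiles of 8 and 23. The GLI-binding 9-mer GACCACCCA, or its reverse complement TGGGTGGTC, was searched in the whole windows of 300 bases (250 before and 50 after the start). It was found in none of the 7 member windows in the table (Gli2, Gli3, Ptch1, Smo, Sufu, Hhip and Gas1), in 0.253% of all 32851 windows and in 0.209% of windows of tested genes. That says only that these letters are not in these windows.

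**Figure D1:**
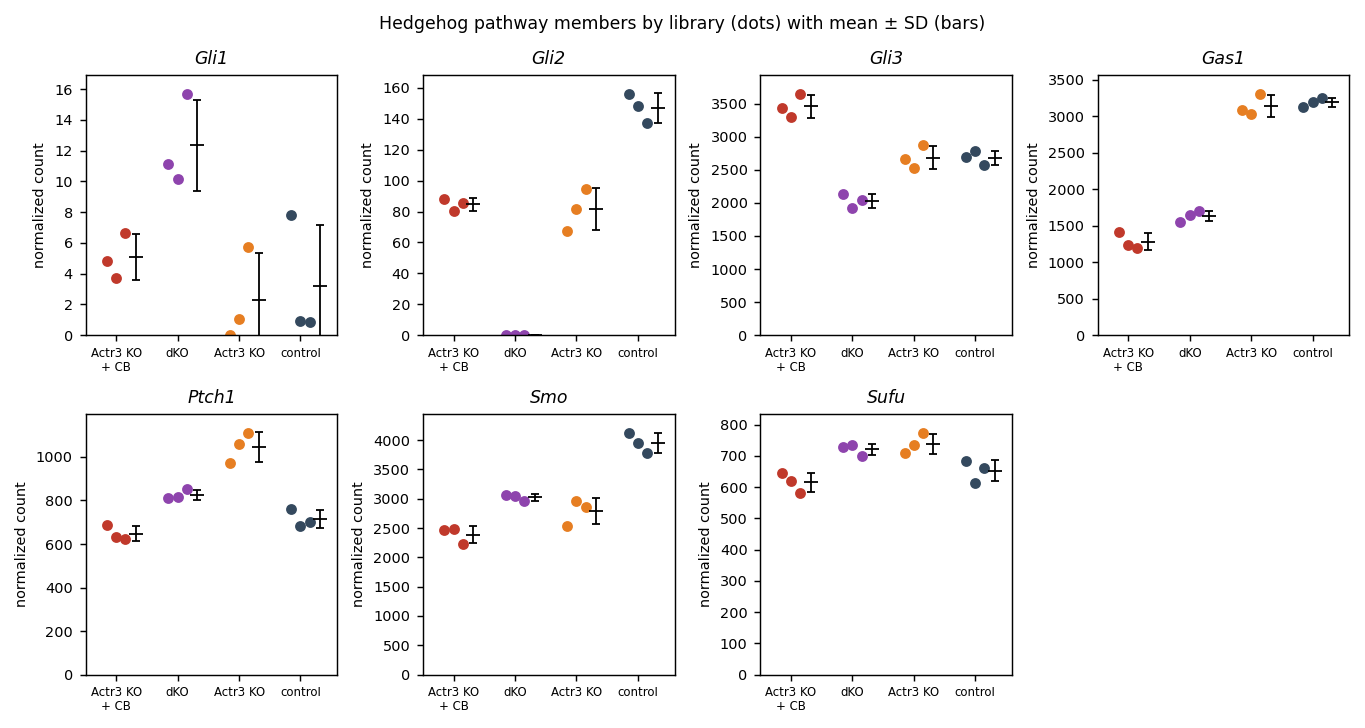
Normalized counts (y axis, from 0, each panel with its own scale) of the 7 tested members in every library, with groups along the x axis (CB, ciliobrevin D) and the mean ± SD (n = 3) beside each group. Gli2 sits at 0 in all 3 dKO libraries, and Gas1 lies at or below 1696 in the dKO and ciliobrevin D libraries and at or above 3032 in the others.

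Values below are given library by library in replicate order, with the unmatched control library last among the controls, and fold changes are of value + 1 on the log2 scale with their SE. Between compared groups, libraries did not overlap for 67.8% to 75.5% of all tested genes, depending on the comparison. Groups without overlap are therefore common and not a trait of the members. PTCH1 is the Hedgehog receptor and Ptch1 (Entrez 19206, GRCm38 chr13:63508328-63573460) is also a target gene of the pathway. Its normalized counts were 686, 631 and 622 in Actr3 KO with ciliobrevin D, 811, 816 and 854 in dKO, 971, 1058 and 1110 in Actr3 KO, and 763, 681 and 701 in control. The 3 Actr3 KO libraries were higher than all others, the dKO libraries lay between them and control, and ciliobrevin D and control overlapped. Ptch1 rose in Actr3 KO against control by a log2 fold change of 0.55 ± 0.07 (SE; limma, Benjamini-Hochberg adjusted p = 4.42e-07). Relative to Actr3 KO it fell by 0.34 ± 0.07 in dKO (limma adjusted p = 0.000204) and by 0.69 ± 0.07 with ciliobrevin D (adjusted p = 1.73e-08), and the ciliobrevin D libraries were lower than dKO by a log2 fold change of -0.36 (limma adjusted p = 9.51e-05). Against control, dKO was higher by 0.21 ± 0.07 (limma adjusted p = 0.0107), a call that was lost without control replicate 3 (0.18, adjusted p = 0.0550) and with chromosome medians removed (0.13, adjusted p = 0.101; range over alternatives 0.00405 to 0.101). With ciliobrevin D against control the value was -0.15 ± 0.07 (limma adjusted p = 0.0702), which passed without ciliobrevin D replicate 1 (-0.19, adjusted p = 0.0317; range over alternatives 0.0317 to 0.266).

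GAS1 is a membrane-anchored co-receptor that helps PTCH1 bind the ligand. Gas1 (Entrez 14451, GRCm38 chr13:60174405-60177535) had 1408, 1238 and 1190 normalized counts with ciliobrevin D, 1557, 1651 and 1696 in dKO, 3082, 3032 and 3305 in Actr3 KO, and 3126, 3198 and 3241 in control. The ciliobrevin D libraries were the lowest, dKO came next without overlap, and Actr3 KO and control overlapped at the top. Relative to Actr3 KO, Gas1 fell by 0.94 ± 0.06 on the log2 scale in dKO (limma adjusted p = 2.13e-11), to 0.521 of its level, and by 1.30 ± 0.06 with ciliobrevin D (adjusted p = 1.38e-13), to 0.407 of it. It was also lower than control in dKO (log2 fold change -0.96) and with ciliobrevin D (-1.32), and lower with ciliobrevin D than in dKO by a log2 fold change of -0.36 (limma adjusted p = 2.13e-05). Between Actr3 KO and control the difference was -0.02, with a 95% interval of -0.15 to 0.10 (limma adjusted p = 0.749). The log2 fold changes of the 10 tested genes nearest to Gas1 ran from -0.58 to 0.76 in dKO against Actr3 KO and from -0.27 to 0.60 with ciliobrevin D.

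BOC is a further co-receptor and HHIP a decoy that binds the ligand. Boc had 6 reads with ciliobrevin D, 0 in dKO, 1 in Actr3 KO and 2 in control, summed over the libraries of each group, and its highest normalized count was 3.61. Hhip had 1 read in all 12 libraries together, in dKO. Neither was measured at this depth, and no comparison of them is made.

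SMO is the membrane protein that carries the signal into the cell. Smo (Entrez 319757, GRCm38 chr6:29735497-29761366) had 2461, 2478 and 2229 normalized counts with ciliobrevin D, 3066, 3050 and 2956 in dKO, 2540, 2969 and 2868 in Actr3 KO, and 4121, 3944 and 3786 in control. All control libraries lay above all others, the ciliobrevin D libraries lay below all others, and dKO overlapped Actr3 KO. In Actr3 KO, Smo fell by 0.50 ± 0.06 against control on the log2 scale (limma adjusted p = 2.12e-07), and the median of the 638 tested genes on chromosome 6 was -0.42 in this comparison. With the median of each chromosome removed the value was -0.10 and no longer called (limma adjusted p = 0.130; over alternatives 2.40e-14 to 0.130). With ciliobrevin D against Actr3 KO, where the chromosome 6 median was -0.06, Smo fell by 0.22 ± 0.06 (limma adjusted p = 0.00270).

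Smo in dKO stood at 0.12 ± 0.06 against Actr3 KO on the log2 scale (limma adjusted p = 0.0911, 95% interval -0.01 to 0.24). It passed after TMM rescaling (0.14, adjusted p = 0.0420), after quantile normalization (0.14, adjusted p = 0.0396) and without Actr3 KO replicate 2 (0.16, adjusted p = 0.0358), and over all alternatives, edgeR and DESeq2 included beside limma, the adjusted p ranged from 0.0358 to 0.481. Against control, Smo was lower in dKO (log2 fold change -0.38) and with ciliobrevin D (-0.73), and these values were -0.01 (limma adjusted p = 0.883) and -0.27 (adjusted p = 0.000371) with chromosome medians removed, where chromosome 6 had medians of -0.39 and -0.41. The ciliobrevin D libraries were lower than dKO by -0.34 (limma adjusted p = 3.12e-05).

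SUFU binds GLI proteins and restrains them. Sufu (Entrez 24069, GRCm38 chr19:46396896-46488804) had 644, 618 and 582 normalized counts with ciliobrevin D, 730, 733 and 700 in dKO, 709, 733 and 773 in Actr3 KO, and 682, 614 and 662 in control. Actr3 KO and dKO overlapped each other and lay above all control libraries, and ciliobrevin D overlapped control from below. Sufu fell by 0.26 ± 0.07 with ciliobrevin D against Actr3 KO (log2 scale, limma adjusted p = 0.00183) and was lower than in dKO by a log2 fold change of -0.23 (adjusted p = 0.00452). In Actr3 KO against control it was higher by 0.18 ± 0.07 (limma adjusted p = 0.0248). Leaving out Actr3 KO replicate 3 (0.14, adjusted p = 0.101) or control replicate 3 (0.13, adjusted p = 0.122) ended that call, as did another setting given in the closing part. Over all alternatives, which include edgeR and DESeq2 beside limma, the adjusted p was 0.01 to 0.122. Between dKO and Actr3 KO the difference was -0.03, with a 95% interval of -0.17 to 0.11 (limma adjusted p = 0.680). Against control, dKO stood at 0.14 (limma adjusted p = 0.0668; over alternatives 0.0293 to 0.252), which passed when control replicate 1 was left out (adjusted p = 0.0476), with TMM rescaling (0.0362), with edgeR (0.0293) and with chromosome medians removed (0.0434), and ciliobrevin D stood at -0.09 (adjusted p = 0.271).

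GLI3 is the main repressor among the GLI factors. Gli3 (Entrez 14634, GRCm38 chr13:15463723-15730026) had 3433, 3294 and 3647 normalized counts with ciliobrevin D, 2127, 1924 and 2045 in dKO, 2661, 2521 and 2871 in Actr3 KO, and 2689, 2783 and 2573 in control. The ciliobrevin D libraries were above all others, the dKO libraries below all others, and Actr3 KO and control overlapped. Relative to Actr3 KO, Gli3 fell by 0.40 ± 0.06 on the log2 scale in dKO (limma adjusted p = 4.10e-06) and rose by 0.37 ± 0.06 with ciliobrevin D (adjusted p = 1.36e-05). The rise was 0.21 after quantile normalization (limma adjusted p = 0.00302; over alternatives 2.91e-08 to 0.00302). Ciliobrevin D was higher than dKO by 0.77 ± 0.06 (limma adjusted p = 1.93e-10). Against control the values were -0.40 in dKO and 0.37 with ciliobrevin D, and Actr3 KO against control gave 0.00 with a 95% interval of -0.12 to 0.12 (limma adjusted p = 1.00).

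GLI2 is the main activator in response to the ligand. Gli2 (Entrez 14633, GRCm38 chr1:118834061-119054405) had 87.8, 80.2 and 85.5 normalized counts with ciliobrevin D, 0, 0 and 0 in dKO, 67.5, 81.8 and 94.8 in Actr3 KO, and 156, 148 and 137 in control. No dKO library had a read, Actr3 KO and ciliobrevin D overlapped, and control was above all. Summed reads were 0 in dKO against 246 in Actr3 KO and 498 in control, so Gli2 was at least 86.3-fold lower in dKO than in Actr3 KO and at least 156-fold lower than in control, taking 3 reads over the dKO group as the floor (counting error only). Set against dKO, the 215 reads with ciliobrevin D were at least 89.6-fold higher. In limma these comparisons, in the order given, were called (adjusted p = 2.65e-16, 2.10e-17 and 1.24e-16). Of 11748 genes with a mean of at least 50 normalized counts in Actr3 KO, 5 (0.0426%) had 0 reads in dKO: Gli2 and, named after their values were seen, Bhlhb9, Ctsf, Dsc2 and Igfbp2.

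Gli2 was lower than control in the other 2 Actr3 KO groups as well. In Actr3 KO its log2 fold change against control was -0.86 ± 0.20 (limma adjusted p = 0.000825), and with ciliobrevin D it was lower than control by a log2 fold change of -0.79 ± 0.20 (adjusted p = 0.00192). Between ciliobrevin D and Actr3 KO the difference was 0.07, with a 95% interval of -0.36 to 0.49 (limma adjusted p = 0.786).

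The genes beside Gli2 were read in dKO. Distances here are between the lowest coordinates of the genes, whatever their strand, and Gli2 lies on the minus strand. Tfcp2l1, which encodes a transcription factor of the kidney's collecting duct, lies 206 kb from Gli2 by that measure, on its downstream side. Tfcp2l1 averaged 2741 ± 77.4 normalized counts in dKO and 3248 ± 142 in Actr3 KO (SD, n = 3 each). Its log2 fold change of -0.24 (limma adjusted p = 0.000796) was -0.01 with chromosome medians removed (adjusted p = 0.832; over alternatives 0.000137 to 0.832). Inhbb, which encodes an inhibin and activin subunit, lies 581 kb from Gli2 by the same measure, on its upstream side. Its means were 1483 ± 61.9 in dKO and 4367 ± 257 in Actr3 KO, a log2 fold change of -1.56. Of the 10 nearest tested genes, 3 rose and 5 fell in dKO against Actr3 KO, with log2 fold changes of -1.56 to 0.40. The median of chromosome 1, which also carries Actr3, was -0.21 in that comparison.

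**Figure D2:**
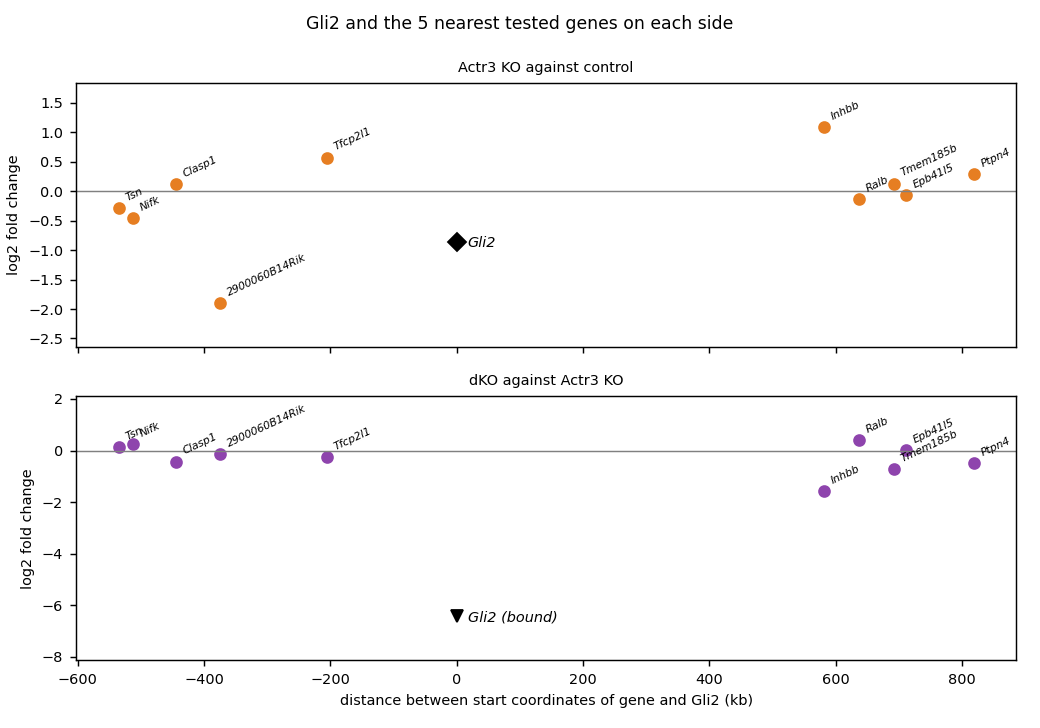
Log2 fold changes (y axis) of Gli2 (black) and of the 5 nearest tested genes on each side (coloured dots) against the distance between their start coordinates and that of Gli2 in kb (x axis), above for Actr3 KO against control and below for dKO against Actr3 KO. Start coordinates are the lowest base of each gene on either strand, so negative distances lie downstream of Gli2, a minus-strand gene. In the lower panel the triangle is the bound of Gli2 against 3 reads (-6.43), and the neighbours lie between -1.56 and 0.40.

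GLI1 is an activator whose gene is switched on by the pathway. Gli1 (Entrez 14632, GRCm38 chr10:127329882-127341579) had 70 reads in all and passed the filter through dKO alone, so it had to be high there. It had 4.81, 3.70 and 6.66 normalized counts with ciliobrevin D, 11.2, 10.2 and 15.7 in dKO, 0, 1.04 and 5.74 in Actr3 KO, and 7.80, 0.902 and 0.889 in control. The dKO libraries were above all others, and the other 3 groups overlapped. As a description, with no test, the dKO value against Actr3 KO was 2.46 ± 0.66 on the log2(value + 1) scale and 1.32 with a pseudocount of 5, and against control it was 2.05 ± 0.66, or 1.17 with a pseudocount of 5. Gli1 overlaps the end of Arhgap9, at 6.70 to 23.2 normalized counts, and as no source used here says whether strand was used in counting, reads of the pair may be mixed. Of the 10 nearest tested genes, 9 were also higher in dKO than in Actr3 KO, with a median log2 fold change of 0.77, and the median of chromosome 10 was 0.40.

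The other Gli1 comparisons moved with single libraries or settings. With ciliobrevin D against Actr3 KO the value was 1.31 ± 0.66 (limma adjusted p = 0.0884), and 2.06 (adjusted p = 0.0115) without Actr3 KO replicate 3, with a range of 0.0115 to 0.392 over alternatives. With ciliobrevin D against control it was 0.91 (limma adjusted p = 0.236), and 1.65 (adjusted p = 0.0384) when control replicate 1 was left out (over alternatives 0.0384 to 0.537). Ciliobrevin D against dKO gave -1.15, or -0.78 with a pseudocount of 5 and -1.77 with quantile normalization, again as a description. Actr3 KO against control gave -0.40 (limma adjusted p = 0.604), and -1.15 to 0.34 when 1 library was left out.

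**Figure D3:**
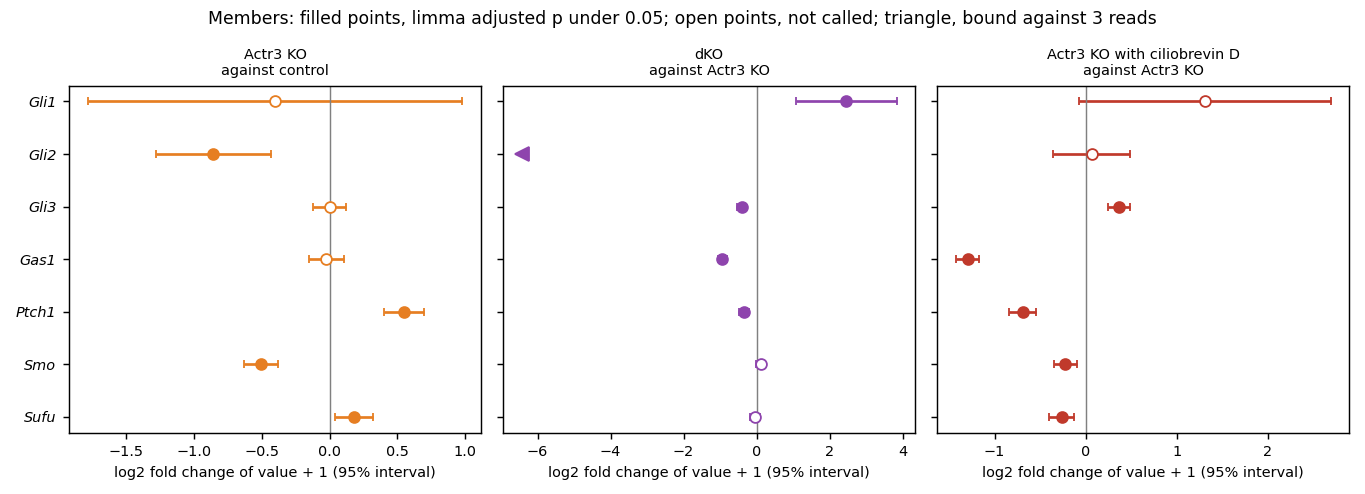
Log2 fold changes (x axis, each panel with its own scale) with 95% intervals of the 7 tested members (y axis) in 3 comparisons. Filled points were called by limma and open points were not, and the filled point of Gli1 in dKO is a description, since Gli1 passed the filter through dKO alone; the triangle for Gli2 is its bound of -6.43 against 3 reads. Gas1 lies left of 0 in dKO and with ciliobrevin D, and Gli3 lies on opposite sides of 0 in those panels.

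The members did not move in 1 direction. In Actr3 KO against control, Ptch1 and Sufu rose and Gli2 and Smo fell, 4 of 7, beside 69.8% of all tested genes called in that comparison. In dKO against Actr3 KO, Gli2, Gli3, Ptch1 and Gas1 fell and none rose, 4 of 6 beside 65.7% of all genes; Gli1 is left out of counts with dKO because it passed the filter through dKO alone. Ciliobrevin D against Actr3 KO gave 1 rise (Gli3) and 4 falls (Ptch1, Smo, Sufu and Gas1), 5 of 7 beside 65.5%. The shares of members called lie near these backgrounds. The median log2 fold change of the 6 members without Gli1 was -0.01, -0.37 and -0.24 in these 3 comparisons, also with Gli2 at its bound where it had 0 reads, and that of all tested genes was 0.00, -0.01 and -0.02. Against control, dKO had 1 of 6 members higher (Ptch1) and 4 lower (Gli2, Gli3, Smo and Gas1), beside 67.1% of all genes called, and ciliobrevin D had 1 of 7 higher and 3 lower (65.1%). With ciliobrevin D against dKO, 2 of 6 were higher and 4 lower (73.4%). The comparisons share libraries and are given side by side for that reason.

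Outside the members, 59 genes of the pathway in 6 lists were in the table and 41 were tested. In Actr3 KO against control, 25 rose and 9 fell (82.9% called, against 69.8% of all genes). In dKO against Actr3 KO, 8 rose and 21 fell, and with ciliobrevin D against Actr3 KO, 9 rose and 20 fell (70.7% called in each, against 65.7% and 65.5% of all genes). The median log2 fold change of each list is given below for these 3 comparisons in this order; over all tested genes it was 0.00, -0.01 and -0.02.

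Ligand genes were at or near 0, while genes of ligand release were expressed. Shh averaged 0 normalized counts in all groups but control (0.301), Dhh at most 6.48, and Ihh at most 14.2 (with ciliobrevin D, SD 8.85); none was tested. Nor were Disp2, Scube1 and Scube2. The 3 tested genes of the list rose in Actr3 KO against control and fell in both other comparisons, with list medians of 1.12, -0.98 and -0.88. Scube3, which encodes a secreted protein that helps release the ligand, averaged 68.0 ± 8.49 in dKO and 803 ± 50.3 with ciliobrevin D, against 1738 ± 186 in Actr3 KO, log2 fold changes of -4.66 and -1.11 (limma adjusted p = 7.05e-20 and 1.34e-09). Hhat, the acyltransferase that adds palmitate to the ligand, had log2 fold changes of 1.12 in Actr3 KO against control, -0.98 in dKO against Actr3 KO and -0.88 with ciliobrevin D. Disp1, the ligand exporter, had 0.49, -0.94 and -0.65 in the same order.

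Among co-receptors outside the members, Cdon and Lrp2 were tested (medians 0.24, -1.11 and -0.54) and Gpc3 and Gpc5 were not. Cdon, a relative of Boc, averaged 1416 in dKO and 1538 with ciliobrevin D, against 2555 in Actr3 KO (log2 fold changes -0.85 and -0.73, limma adjusted p = 4.65e-10 and 4.83e-09), and gave 0.05 in Actr3 KO against control (adjusted p = 0.554). Lrp2, which encodes megalin, rose in Actr3 KO against control (0.44) and fell in dKO (-1.37) and with ciliobrevin D (-0.34) against Actr3 KO.

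All 12 regulators of SMO and its ciliary traffic were tested. In Actr3 KO against control 10 rose and none fell. In dKO against Actr3 KO 2 rose and 6 fell, and with ciliobrevin D 1 rose and 7 fell (medians 0.29, -0.22 and -0.20). Evc and Evc2, whose proteins form a complex with SMO at the base of the cilium, had log2 fold changes of 0.56 and 0.83 in Actr3 KO against control, -1.04 and -0.64 in dKO against Actr3 KO, and -0.62 and -0.31 with ciliobrevin D. With chromosome medians removed, Evc2 in dKO was -1.05. Arrb1, a beta-arrestin, had 0.75 in Actr3 KO against control, and -0.70 in dKO and -0.64 with ciliobrevin D against Actr3 KO. Gpr161, a ciliary receptor that restrains the pathway, had 0.56, -0.73 and -0.24 in the same order. Arrb2 had 0.30, 0.09 (limma adjusted p = 0.190) and -0.40. The rises against Actr3 KO were named after their values were seen. They were Iqce (0.37, limma adjusted p = 1.06e-06) and Mgrn1 (0.15, adjusted p = 0.0128) in dKO, and Grk2 (0.26, adjusted p = 0.000181) with ciliobrevin D.

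The 14 genes of GLI protein processing moved both ways: 5 rose and 6 fell in Actr3 KO against control, 4 rose and 5 fell in dKO against Actr3 KO, and 6 rose and 3 fell with ciliobrevin D (medians -0.03, -0.07 and 0.15). Tulp3, an adaptor for ciliary membrane traffic, fell in Actr3 KO against control (log2 fold change -0.99, and -0.58 with chromosome medians removed), as did Prkaca, a catalytic subunit of protein kinase A (-0.61), Cul3, a ubiquitin ligase scaffold (-0.56), and Csnk1a1, casein kinase 1 alpha (-0.40, and -0.25 after quantile normalization). In dKO against Actr3 KO, Stk36, a kinase (-0.60, and -0.37 with chromosome medians removed) and Kif7, a ciliary kinesin (-0.47), fell, and Spop, a CUL3 adaptor for GLI proteins, rose (0.34). Gsk3b fell there by 0.51 but stood at -0.08 with chromosome medians removed (limma adjusted p = 0.184; over alternatives 1.36e-20 to 0.184). With ciliobrevin D, Cul3 (0.79), the adaptor gene Numb (0.60), the F-box gene Fbxw11 (0.57) and Csnk1a1 (0.51, and 0.33 after quantile normalization) rose against Actr3 KO. The 3 falls there, named after their values were seen, were Stk36 (-0.82, limma adjusted p = 3.82e-08), Btrc, which encodes an F-box protein that binds GLI proteins (-0.41, adjusted p = 2.05e-06), and Prkaca (-0.16, adjusted p = 0.0181).

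Target genes outside the members did not share a direction either. Of 11, 7 were tested (not Ccnd2, Foxf1, Foxf2 and Foxl1): 4 rose and 2 fell in Actr3 KO against control, and 2 rose and 3 fell in each of the other comparisons (medians 0.18, 0.01 and -0.30). Ccnd1, the gene of cyclin D1, averaged 382 with ciliobrevin D, 189 in dKO and 97.5 in Actr3 KO, against 1019 in control. Its log2 fold change was -3.38 in Actr3 KO against control. Against Actr3 KO it was 0.95 in dKO (limma adjusted p = 6.93e-07) and 1.95 with ciliobrevin D. Osr2, a zinc finger gene, averaged 37.0 with ciliobrevin D, 434 in dKO and 118 in Actr3 KO, against 18.3 in control; the log2 fold changes were 2.63 in Actr3 KO against control, 1.87 in dKO against Actr3 KO and -1.64 with ciliobrevin D. Mycn, a proto-oncogene, had 0.76, -0.92 and -0.44 in the same comparisons. Bmp4, which encodes a secreted growth factor, fell in dKO (-1.10) and with ciliobrevin D (-0.30, limma adjusted p = 0.00140) against Actr3 KO. Bcl2, which restrains apoptosis, fell in dKO against Actr3 KO (-0.76) and rose with ciliobrevin D (0.36). Prdm1 rose in Actr3 KO against control by 2.51, or 1.248 with a pseudocount of 5, at means of 8.92 and 0.882.

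Of the GLI-related zinc finger genes, 3 Glis genes were tested (medians 0.21, -0.17 and -0.39) and the 5 Zic genes were not. Glis2, known for a kidney disease of the nephronophthisis type, averaged 7076 with ciliobrevin D, 8211 in dKO and 9263 in Actr3 KO, against 6184 in control. It rose in Actr3 KO against control (log2 fold change 0.58) and fell with ciliobrevin D against Actr3 KO (-0.39). Its value of -0.17 in dKO against Actr3 KO turned to 0.25 with chromosome medians removed (limma adjusted p = 0.000115; over alternatives 0.000112 to 0.0186). Glis1 fell in Actr3 KO against control (-1.07). Glis3 fell with ciliobrevin D (-0.44). Its rise of 0.21 in Actr3 KO against control (limma adjusted p = 0.00861) was lost without the unmatched control library (0.15, adjusted p = 0.0751, range 0.000108 to 0.0751) and became 0.34 after quantile normalization, and its fall of 0.16 in dKO (adjusted p = 0.0375) was lost in 7 settings, among them without dKO replicate 2 (-0.12, adjusted p = 0.156, the highest of a range from 0.0147), without dKO replicate 3 (0.0614), without Actr3 KO replicate 2 (0.123) and without Actr3 KO replicate 3 (0.0983).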

How the data were processed

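Per the labels' protocols, RNA was poly(A)-selected, prepared with a NEBNext Ultra II kit and sequenced on an Illumina NovaSeq. Per the submitters' processing notes, the tools included HISAT2 2.2.1, fastp 0.23.2, DESeq2 2.11.40.7 and featureCounts 2.0.1, and the build was mm10 (GRCm38). No source used here gives their order, their options or the use of strand. The deposited values are a signal, gene counts divided by 1 size factor per library: 100% came out as whole reads within a tolerance of 0.01, so reads were recovered by division. They are not corrected for length. Levels per kb used merged exons of GENCODE's GRCm38 annotation.

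Genes with at least 10 in at least 3 libraries were fitted as log2(value + 1) with limma 3.58.1 (R 4.3.3, 1 two-sided fit of all libraries with a trend), with Benjamini-Hochberg adjustment over all 13939 tested genes and calls at an adjusted p under 0.05. The count test that the design named as an alternative, edgeR 4.0.16 on recovered reads, called 9856 genes in Actr3 KO against control, 9236 in dKO against Actr3 KO and 9143 with ciliobrevin D against Actr3 KO, where limma called 9724, 9164 and 9136. Other alternatives were DESeq2 1.42.0, pseudocounts of 0.5 and 5, no filter or a mean of at least 50, TMM or quantile scaling, chromosome medians removed, fits of 2 groups, a replicate block, a 2-fold threshold and leaving out each library. The chi-square of reads between replicates, per degree of freedom, was 4.48 to 16.9, above counting noise, so no libraries were merged. A group with 0 reads was set to 3 summed reads, and such a fold is a bound. The limma and edgeR fits were also run on simulated data. There far fewer genes changed than were called here, so that run does not measure the error of these calls.

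The members and lists were chosen with earlier results of these data known. Named genes were the members, Actr3 and Ift88, up to 4 called genes per list and comparison with the smallest adjusted p, the genes next to Gli2, and, per member, the 3 genes with a mean of at least 50 whose group means were most alike; a few of the genes so chosen are not reported here. The control column headed control 2, replicate 1 matched no title (all name control 1) and was placed by its control name, so the controls may hold a second line. Start-site windows are from RefSeq. The 3-read floor covers counting error only, and limma's 95% intervals cover the spread between libraries.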

Additional observations from a re-analysis of the deposited data

How the results depend on the processing

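Members called numbered 4 in Actr3 KO against control, 5 in dKO against Actr3 KO and 5 with ciliobrevin D against Actr3 KO. The counts here with dKO include Gli1, which passed the filter through dKO alone; without it 4 were called in dKO against Actr3 KO and 5 in dKO against control. With a threshold of at least 2-fold, and Gli1 still counted, the members called were 0 (1691 genes called in all), 2 (1325) and 1 (1302). The 2 in dKO against Actr3 KO were Gli2 and Gli1, so Gli2 alone remains without Gli1. Against control they were 2 for dKO (1736 genes), again Gli2 and Gli1, and 1 for ciliobrevin D (1470). Ciliobrevin D against dKO gave 1 (2165), which was Gli2. The counts from leaving out each library also include Gli1 wherever it was called. They were 3 to 4 members called in Actr3 KO against control (9094 to 9979 genes), 5 to 6 in dKO against Actr3 KO (8551 to 9400) and 5 to 6 with ciliobrevin D against Actr3 KO (8507 to 9150). Leaving out each library gave 5 to 7 in dKO against control (8723 to 9566), 4 to 5 with ciliobrevin D against control (8352 to 9073) and 6 to 6 with ciliobrevin D against dKO (9710 to 10238).

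Values that changed sign were small or uncalled ones, and the cause was not tested. Gli3 in Actr3 KO against control turned to -0.00167 with TMM rescaling and -0.000179 with edgeR, and ran from -0.0496 to 0.0443 over the left-out libraries (-0.03 without the unmatched control library). Gas1 in the same comparison turned to 0.0740 with quantile normalization, 0.0268 with chromosome medians removed and 0.00155 with the replicate block, and ran from -0.0606 to 0.00151 over the left-out libraries. Gli1 there ran from -1.15 to 0.34, turning without Actr3 KO replicate 1 and without control replicate 1. Gli2 with ciliobrevin D against Actr3 KO ran from -0.0592, without Actr3 KO replicate 1, to 0.18. Ift88 in dKO against Actr3 KO ran from -0.0642 to 0.0148, and was -0.18 and called with chromosome medians removed (limma adjusted p = 0.0352). Glis2 in that comparison, called, turned to 0.25 with chromosome medians removed.

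Deviations of same-numbered libraries of different groups had correlations of -0.04 to 0.07 over 15 pairs (median 0.025). Over 30 pairs with different numbers they were -0.10 to 0.10 (median -0.00012). Pairing by number was not detected, and this check cannot exclude it. With the replicate block, 3 members were called in Actr3 KO against control (9080 genes) and 5 in each of the other comparisons with Actr3 KO. Calls lost under it were Sufu (0.18, limma adjusted p = 0.0581) and Glis3 (0.16, adjusted p = 0.0603) in Actr3 KO against control. That fit also left out the unmatched control library, which has no replicate number. Leaving out that library with no block also ended the Glis3 call (0.15, limma adjusted p = 0.0751). Depth limits Gli1, Hhip and Boc, which had 70, 1 and 9 reads over all libraries.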

Other observations

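Genes whose 4 group means ran most like those of each member were found by the root mean square difference of centred log2(value + 1) means over the 4 groups, among tested genes with a mean of at least 50. Gli2 was most like Clip3, Tex15 and Aplp1 (0.32, 0.33 and 0.39). Clip3 averaged 280 with ciliobrevin D, 2.49 in dKO and 354 in Actr3 KO, against 769 in control, and Tex15 had 0 reads in dKO against a mean of 48.6 in Actr3 KO. Gas1 was most like Ntn4, Aldh4a1 and Rasl11a (0.10, 0.12 and 0.13). Ntn4, which encodes a basement membrane protein of the netrin family, averaged 545 ± 65.6 with ciliobrevin D, 830 ± 34.4 in dKO and 1410 ± 92.5 in Actr3 KO, against 1584 ± 83.9 in control (SD, n = 3 each).

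Ptch1 was most like Zmynd10, Kifc1 and Usp54 (0.03 each). Zmynd10, a gene needed to assemble the dynein arms of motile cilia, averaged 42.0 with ciliobrevin D, 55.9 in dKO and 71.8 in Actr3 KO, against 46.7 in control. Smo was most like Ndufb6, Mbtps2 and H1f10, and Gli3 was most like Zfp597 and Zfp592. Sufu was most like Cpsf3, Wdr35 and Polr3f, and of these Wdr35, an intraflagellar transport gene, averaged 1940 with ciliobrevin D, 2247 in dKO and 2298 in Actr3 KO, against 2087 in control. Gli1 was most like Serpinb9b, Adh7 and Mmp17, all highest in dKO. These are descriptions over 4 group means, with no test.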
